A study of Mus musculus with 16 samples.

Results

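The miR-26 family was examined through the 3 rows of the brain non-coding RNA (ncRNA) table that are named mmu-miR-26a-5p, mmu-miR-26b-5p and mmu-miR-26b-3p, taken by exact name from 18488 rows, of which 1970 were miRNA rows. Small RNA libraries of prefrontal cortex, 8 from PS19 and 8 from wild-type (WT) mice, were sequenced to learn which ncRNAs change in level in a mouse model of tauopathy. PS19 mice, labelled PS19+/-, were heterozygous for a transgene in which the mouse prion promoter drives human MAPT with the P301S mutation, on a (C57BL/6xC3H)F1 background. WT mice were littermates without the transgene, and all mice were of a single late age with males and females in equal number per group, although the labels give no sex for a library. The transgene is not limited to 1 cell type by its promoter, and whole tissue was sequenced, so fewer cells of a type and less RNA per cell cannot be told apart.

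A miRNA is cut from a hairpin precursor as a pair of strands, the 5p and the 3p arm, and usually 1 arm is loaded into the Argonaute protein while the other is degraded. The loaded arm finds messenger RNAs mainly through its seed, bases 2 to 8. The miR-26 genes lie in introns of the Ctdsp genes, which encode small phosphatases that act on the tail of RNA polymerase II and that the repressor REST brings to neuronal genes in non-neuronal cells. miR-26 in turn represses Ctdsp2, a loop known from neuronal differentiation. miR-26a is also a known repressor of Ezh2, a histone methyltransferase, and of Gsk3b, a kinase that phosphorylates tau.

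The sequences below show why the members form a family and where they part. Mature sequences were taken from RefSeq on GRCm38.p6, written 5′ to 3′ with the seed in capitals, and all 3 members were matched by name. The other 3p arms of the miR-26 hairpins are shown for comparison.
mmu-miR-26a-5p: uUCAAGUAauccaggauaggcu
mmu-miR-26b-5p: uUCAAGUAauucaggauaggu
mmu-miR-26b-3p: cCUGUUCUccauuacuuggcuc
mmu-miR-26a-2-3p: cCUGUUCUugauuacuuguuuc
mmu-miR-26a-1-3p: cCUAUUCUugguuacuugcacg

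miR-26a-5p (22 bases) and miR-26b-5p (21 bases) had the same seed, UCAAGUA, which 2 mature mouse miRNA names in the RefSeq table carried, these 2. Counted from 1 at the 5′ end, the sequences differed at 2 positions, C11U and C21U from miR-26a-5p to miR-26b-5p, and miR-26b-5p ended 1 base earlier. Both differences lay outside the seed. The seed of miR-26b-3p, CUGUUCU, was shared with miR-26a-2-3p and with 2 miRNAs of other hairpins, mmu-miR-6932-3p and mmu-miR-7039-3p. miR-26a-1-3p differed from miR-26b-3p within the seed, at G4A.

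The hairpins below carry both arms in capitals, the 5p arm first.
Mir26b: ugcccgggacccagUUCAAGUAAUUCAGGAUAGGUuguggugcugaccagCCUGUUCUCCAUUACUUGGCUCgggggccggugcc
Mir26a-1: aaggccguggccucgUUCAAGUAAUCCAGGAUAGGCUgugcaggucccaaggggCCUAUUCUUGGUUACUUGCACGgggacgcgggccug
Mir26a-2: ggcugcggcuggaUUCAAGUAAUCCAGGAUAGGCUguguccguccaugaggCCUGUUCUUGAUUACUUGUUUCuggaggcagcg

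On GRCm38.p6, Mir26b lay at chr1:74394310-74394394, Mir26a-1 at chr9:119031796-119031885 and Mir26a-2 at chr10:126995530-126995613, each on the plus strand. In the principal transcript of GENCODE M21, Mir26b was in intron 4 of 6 of Ctdsp1, Mir26a-1 in intron 5 of 7 of Ctdspl and Mir26a-2 in intron 5 of 7 of Ctdsp2, in each case on the strand of its host. The 5p arm of Mir26a-1 and that of Mir26a-2 are identical, so a read of miR-26a-5p cannot be given to either locus. Their 3p arms differ and can be told apart.

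Libraries held 13.2 M to 23.1 M recovered reads, and miRNA rows took 15.0% to 32.6% of them. The values are read counts that the authors divided by 1 DESeq2 size factor per library, called normalized counts here. The neuronal miRNAs miR-124-3p, miR-128-3p and miR-137-3p summed to between 195092 and 782738 normalized counts in PS19 and between 274024 and 754284 in WT, so neuronal signal was present in every library. Most of this sum was miR-128-3p, with means of 506408 in PS19 and 466399 in WT. Markers of other tissues were low beside the sum. Beside miR-124-3p alone, with means of 11604 in PS19 and 11824 in WT, the choroid plexus miRNAs were less clearly low. In PS19 and in WT, respectively, red blood cell miRNAs summed to 731 to 1518 and 652 to 1411, choroid plexus miRNAs to 788 to 6777 and 550 to 4325, the liver miRNA miR-122-5p to 138 to 654 and 132 to 387, and muscle miRNAs to 102 to 1963 and 115 to 1407. Olfactory bulb miRNAs summed to 32.5 to 565 in PS19 and 53.0 to 3175 in WT, with higher WT means and wide SDs for all 3 markers (miR-200b-3p, 214 ± 153 against 546 ± 769, SD, n = 8 each). Oligodendrocyte miRNAs summed to 18522 to 52332 and 13365 to 46513, and vascular miRNAs to 15206 to 61634 and 17840 to 60601. Of the markers of these 8 lists in the fit, the neuronal list included, 0 were called between genotypes at an unadjusted limma p-value under 0.05, where 4.0% of all rows and 2.41% of miRNA rows in the fit were called. Myeloid miRNAs summed to 568 to 3003 in PS19 and 432 to 1534 in WT, and 1 of 2 in the fit was called, against the same shares. This was miR-155-5p, induced in activated microglia, at 82.5 ± 51.6 (SD, n = 8) in PS19 against 44.3 ± 15.8 (SD, n = 8) in WT, with an unadjusted limma p-value of 0.0167 and an adjusted p-value of 0.9998. The part of cell composition in the values below was not tested.

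miR-26a-5p was among the most abundant miRNAs of the cortex. Its rank among miRNA rows was between 8 and 15 in every library, and it held 1.06% to 2.42% of the miRNA signal. miR-26b-5p ranked between 101 and 146, with 0.0189% to 0.0478% of the miRNA signal. miR-26b-3p ranked between 732 and 1137 and was seen in 15 of 16 libraries with at most 5 reads. The members are 21 or 22 bases long, so these levels were compared without a correction for length. Whether the members are captured equally well in a library was not tested. The order of miR-26a-5p over miR-26b-5p over miR-26b-3p held in 16 of 16 libraries, and the ranges of neighbours in that order did not overlap.

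The normalized count of miR-26a-5p was lowest at 33100, had a median of 65044 and reached 153728 in PS19. In WT it was lowest at 36821, had a median of 90444 and reached 114981. The PS19 range enclosed the whole WT range, with the 2 highest and the lowest of the 16 libraries in PS19, and the WT median was exceeded by 3 of 8 PS19 libraries. The PS19 mean was 80433 ± 45304 (SD, n = 8), and the WT mean was 83467 ± 30396 (SD, n = 8). On the log2(value + 1) scale the difference of PS19 from WT was -0.14 ± 0.33 (SE) in limma, with a p-value of 0.663 and an adjusted p-value of 0.9998 over the 6024 rows tested. Its 95% interval ran from -0.82 to 0.53, that is from 0.566-fold to 1.45-fold. Changes of up to 1.77-fold down and 1.45-fold up are therefore within the error of these 16 libraries.

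miR-26b-5p, the member from the Ctdsp1 intron, was at 636 normalized counts in its lowest PS19 library, with a median of 1324 and a highest value of 2320. In WT the lowest value was 680, the median 1799 and the highest 2472. The genotypes overlapped over almost their whole ranges, and 2 of 8 PS19 libraries exceeded the WT median. Means were 1423 ± 640 (SD, n = 8) and 1663 ± 666 (SD, n = 8), and the limma difference was -0.23 ± 0.32 (SE) on the log2(value + 1) scale, with a p-value of 0.482 and an adjusted p-value of 0.9998. The 95% interval, from -0.90 to 0.44, covered 0.536-fold to 1.35-fold.

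miR-26b-3p, the arm of Mir26b that is usually degraded, was measured by 14 reads in all PS19 libraries and 18 in all WT libraries. Per 1 M recovered reads this was 0.103 in PS19 (95% exact Poisson interval, 0.0565 to 0.174) and 0.123 in WT (0.0727 to 0.194), intervals that cover counting error only. Normalized counts were lowest at 0, with a median of 1.52 and a highest value of 4.37 in PS19. In WT they were lowest at 0.707, with a median of 1.78 and a highest value of 4.67. The library at 0, PS19 replicate 6, allows up to 3 reads. The row was below the mean of 5 normalized counts needed for the limma fit, so it was compared by a two-sided exact permutation test over 12870 assignments of 8 and 8 libraries, which gave a difference of -0.14 on the log2(value + 1) scale with p = 0.714. The Poisson intervals of the genotypes overlapped.

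**Figure D1:**
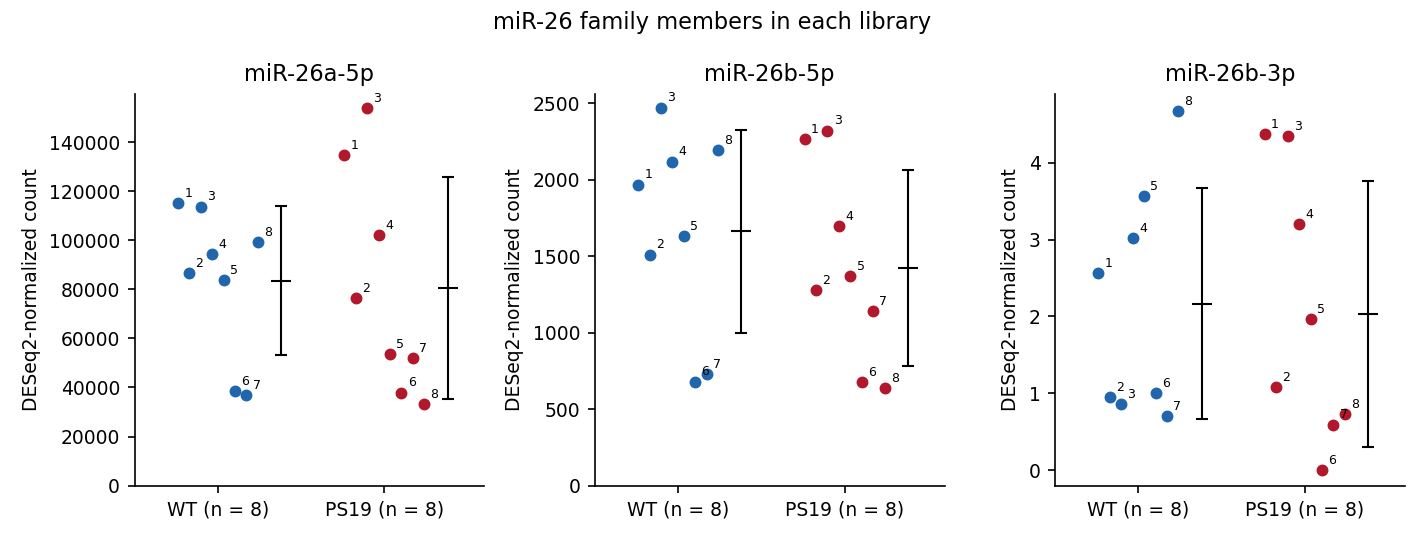
Normalized count (vertical axis, linear, a scale of its own in each panel) of miR-26a-5p, miR-26b-5p and miR-26b-3p, with 1 point per library and its replicate number, WT in blue and PS19 in red; the black bars give the mean ± SD (n = 8). The genotypes overlap in each panel, with a wider PS19 than WT range for miR-26a-5p, and PS19 replicates 6 and 8 and WT replicates 6 and 7 are low for both 5p members.

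Of the 6024 rows in the fit, 241 were called at an unadjusted limma p-value under 0.05, which is 4.0%; the study used this threshold with the DESeq2 Wald test. Of the 748 miRNA rows in the fit, 18 were called, which is 2.41%. 0 of the 2 family members in the fit were called. At an adjusted p-value under 0.05, limma called 0 rows and edgeR 0, while DESeq2 on recovered reads called 15, none of them a row of a miR-26 hairpin. The log2 differences of the 5p members, -0.14 and -0.23, stood at percentiles 46.1 and 35.7 of all miRNA rows in the fit, whose median was -0.12 with 500 of 748 below 0.

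The level of the 5p members followed the total miRNA signal of the library. The sum of all miRNA rows ranged 3.09-fold, from 2.27 M to 7.02 M normalized counts, and did not differ between genotypes beyond the spread (log2 difference of PS19 from WT, -0.06; two-sided exact permutation test, n = 8 per group, p = 0.845). The 6 libraries with the lowest sums, at most 3.57 M, were PS19 replicates 5 to 8 and WT replicates 6 and 7. In these, miR-26a-5p was between 33100 and 53692 normalized counts, and in the other 10, with sums of 4.33 M or more, between 76396 and 153728, so the ranges did not overlap. miR-26b-5p was between 636 and 1372 in the 6 and between 1276 and 2472 in the other 10. The split lies at a gap in the sums, which contain the members and share their size factor, so it is a description. The share of miRNA rows whose ranges part in the same way as those of miR-26a-5p was not counted. Across the 16 libraries the Pearson r with the miRNA sum was 0.946 for miR-26a-5p and 0.881 for miR-26b-5p on the log2 scale, a description, since the member and the sum are divided by the same size factor in each library and the sum includes the member itself.

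**Figure D2:**
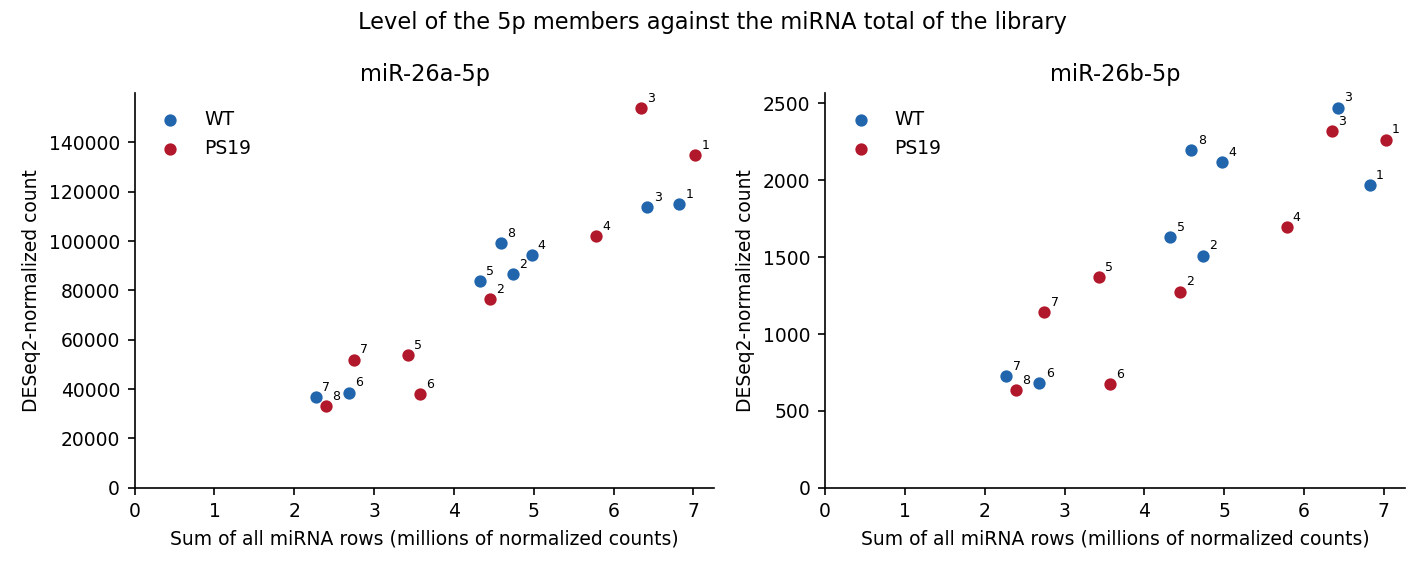
Normalized count of miR-26a-5p (left) and miR-26b-5p (right) against the sum of all miRNA rows in the same library (horizontal axis, M normalized counts), with 1 numbered point per library, WT in blue and PS19 in red. Points of both genotypes lie along 1 rising band, with the 6 libraries of at most 3.57 M at its lower left end.

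As a share of the miRNA signal, miR-26a-5p varied much less than as a normalized count. The share in PS19 was lowest at 1.06%, had a median of 1.74% and reached 2.42%, and in WT it was lowest at 1.44%, had a median of 1.80% and reached 2.16%. The highest share was 2.28-fold the lowest, against 4.64-fold for the normalized count. The SD within genotypes fell from 0.747 to 0.280 on the log2 scale once rows were scaled to the total of their class. Among the 184 miRNA rows with a mean above 500, this moved miR-26a-5p from percentile 71.7 to percentile 22.3 of that SD. The median SD of these rows also fell, from 0.673 to 0.366. After scaling, the log2 SD of miR-26a-5p was 0.353 in PS19 and 0.178 in WT, so its steadiness was mainly that of the WT libraries. For miR-26b-5p the SD fell from 0.712 to 0.337, and the percentile from 63.0 to 39.1.

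With this scaling by class total, the limma differences were also more narrowly bounded. miR-26a-5p then differed by -0.09 ± 0.14 (SE) on the log2 scale, with a 95% interval from 0.767-fold to 1.15-fold and an unadjusted limma p-value of 0.535 (adjusted, 0.9997). miR-26b-5p differed by -0.18 ± 0.18 (SE), with an interval from 0.687-fold to 1.14-fold and an unadjusted limma p-value of 0.333 (adjusted, 0.9997). Neither was called on this scale.

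Because both 5p members carry the same seed, their ratio gives the makeup of the reads with that seed in a library. It does not depend on the size factor. Whether a read stands for the same number of molecules in both members was not tested. miR-26a-5p outnumbered miR-26b-5p by 39.1 to 66.3 reads to 1, with a median of 54.1. miR-26b-5p was 1.51% of miR-26a-5p in the lowest PS19 library, with a median of 1.73% and a highest value of 2.56%. In WT the lowest value was 1.71%, the median 1.96% and the highest 2.25%. The groups overlapped, and PS19 held both the lowest library, replicate 3, and the highest, replicate 5. The mean log2 ratio differed by -0.09 ± 0.11 (SE) from WT, which was within the spread (two-sided exact permutation test, n = 8 per group, p = 0.412, adjusted p = 0.804 over 2 ratios).

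The arms of Mir26b were far apart. The 5p arm had 24839 reads in all and the 3p arm 32, or 776 to 1. miR-26b-3p was 0% to 0.193% of miR-26b-5p in PS19, with a median of 0.129%, and 0.0346% to 0.219% in WT, with a median of 0.136%. The libraries of the genotypes were interspersed. With 1 read added to each count, the log2 ratio of PS19 minus WT was 0.08 ± 0.30 SE (two-sided exact permutation test, n = 8 per group, p = 0.804, adjusted p = 0.804 over 2 ratios). This sign is opposite to that of the medians in percent, and with 0.5 reads added the difference was -0.0097, so no direction is read from it.

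**Figure D3:**
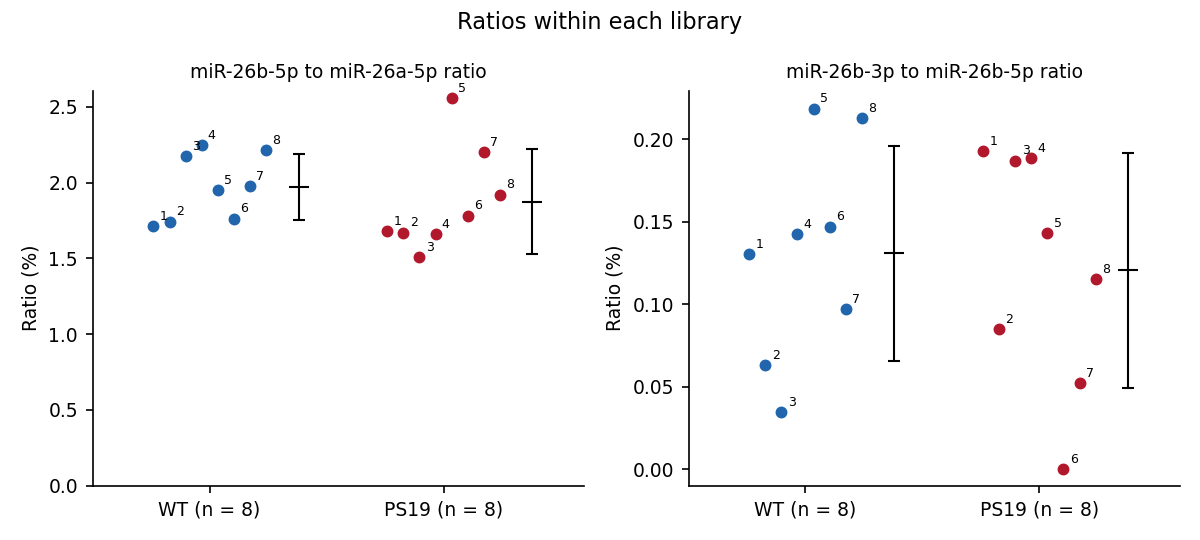
Ratio in percent (vertical axis) of miR-26b-5p to miR-26a-5p (left) and of miR-26b-3p to miR-26b-5p (right), with 1 numbered point per library, WT in blue and PS19 in red, and black bars for the mean ± SD (n = 8). The left ratio stays between 1.51% and 2.56% in all 16 libraries, and the right ratio, which rests on 0 to 5 reads of the 3p arm per library, runs from 0% to 0.219%.

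The other rows of the same hairpins were then compared. The 3p arm of Mir26a-2 had 395 reads in all and that of Mir26a-1 had 9. miR-26a-2-3p was above miR-26a-1-3p in 16 of 16 libraries, at 7.70 to 60.2 against 0 to 1.90 normalized counts, so the ranges did not overlap. It was also above miR-26b-3p, whose seed it shares, in 16 of 16 libraries, by 12.3 to 1 in summed reads. The hairpin rows, which hold reads assigned to the precursor, were closer together, with 308 reads for mir-26a-2, 210 for mir-26a-1 and 173 for mir-26b. mir-26a-2 was above mir-26a-1 in 16 of 16 libraries, and mir-26a-1 was above mir-26b in 9 with 1 tie.

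Of the 3p-arm reads of the Mir26a loci, which differ in sequence between the loci, more were therefore from Mir26a-2, in the Ctdsp2 intron. How reads were assigned to hairpin rows is not given in the sources used here, and the hairpins hold an identical 5p arm, so the hairpin rows do not separate the loci in the same way. A comparison of 3p arms does not measure how the miR-26a-5p reads divide between the loci. The 26a-2-3p arm was 0.00677% to 0.0752% of miR-26a-5p, on 9 to 47 reads of the 3p arm per library.

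**Figure D4:**
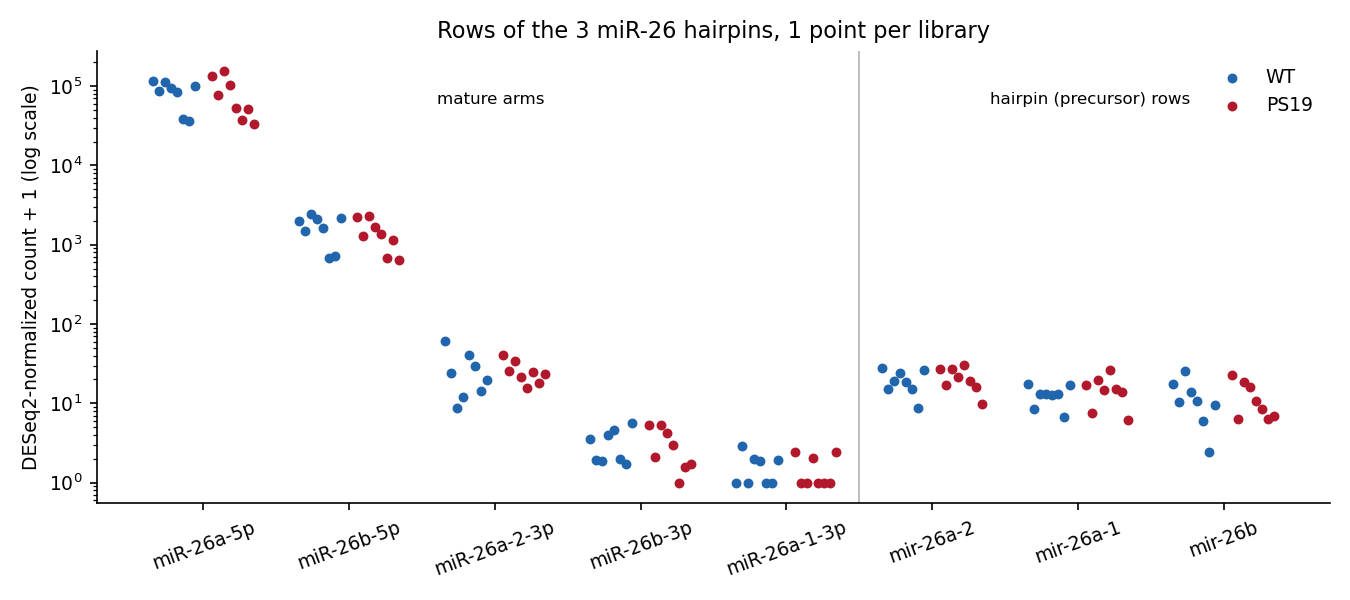
Normalized count plus 1 (vertical axis, log scale) of the 8 rows of the miR-26 hairpins, with mature arms left of the grey line and hairpin rows right of it, 1 point per library, WT in blue and PS19 in red. miR-26a-5p lies above every other row in all libraries, miR-26a-2-3p is the highest of the 3p arms, and WT and PS19 points overlap in every row.

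None of these rows was called between genotypes. miR-26a-2-3p averaged 24.5 ± 8.16 normalized counts (SD, n = 8) in PS19 against 25.3 ± 17.4 (SD, n = 8) in WT mice, and had a limma difference of 0.16 ± 0.34 (SE, log2) and a p-value of 0.640. The hairpin rows mir-26a-1, mir-26a-2 and mir-26b had limma differences of 0.18 ± 0.30, 0.12 ± 0.27 and 0.10 ± 0.41 (SE, log2), with p-values of 0.545, 0.674 and 0.807. The sign for miR-26a-2-3p and mir-26b turned under DESeq2 and edgeR, where the differences were between -0.04 and 0. miR-26a-1-3p, with 4 reads in PS19 and 5 in WT, was below the filter.

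The rows whose pattern over the 16 libraries was most like that of each member were listed by Pearson r on log2(value + 1), as a description without a test. For miR-26a-5p these were miR-98-5p, a let-7 relative (r = 0.964), the mir-29a hairpin (0.962), miR-376b-5p from the imprinted cluster (0.959), miR-125b-5p, a neuronal and glial miRNA (0.957), and miR-192-5p (0.954). Among other classes they were the circRNA rows mmu_circ_0002329 (0.955), mmu_circ_0016169 (0.939) and mmu_circ_0002747 (0.939). For miR-26b-5p they were miR-191-5p (0.979), miR-384-5p (0.978), miR-340-5p (0.962), miR-9-5p, the abundant neural progenitor and neuronal miRNA (0.957), and miR-30e-5p (0.956), with Mir3068 (0.970), mmu_circ_0016066 (0.946) and mmu_circ_0007710 (0.944) outside the class of miRNA names. Within a library, all rows share its size factor, and the miRNA rows share its miRNA total.

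Such high values were common. miR-26a-5p had an r over 0.9 with 81 of 747 miRNA rows, and miR-26b-5p with 72 of 747, with medians of 0.709 and 0.687. The 2 members had an r of 0.958 with each other, which became 0.789 after scaling by class total. On that scale the r of miR-98-5p with miR-26a-5p was 0.714 and that of mmu_circ_0016169 was 0.551, while miR-191-5p kept 0.90 with miR-26b-5p. For miR-26b-3p the closest miRNA rows were mir-369 (0.882), miR-1191a (0.826), mir-125b-2 (0.819), miR-30c-5p (0.816) and mir-203 (0.80), and those of other classes were mmu_circ_0001601 (0.860), Rnu7 (0.834) and Mus_musculus_tRNA-Lys-CTT-5-1 (0.832), all on few reads of the member.

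Library codes in the labels start with G in all 8 PS19 libraries and in 2 of the WT libraries, with F in 4 others and with A in the last 2, and the meaning of the letter is not given in the sources used here. Genotype and letter can be compared only through the 2 WT libraries with G. Those were at 86607 and 94280 normalized counts of miR-26a-5p and at 1510 and 2118 of miR-26b-5p, inside the PS19 ranges for both members. With that letter added to the model, the limma differences were -0.37 for miR-26a-5p and -0.47 for miR-26b-5p, with p-values of 0.475 and 0.344, and neither was called.

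Partner miRNAs of the pathway were read in the same fit. The list held miRNAs of the REST and Ctdsp circuit: miR-124-3p, which represses Ctdsp1 and marks neurons, both arms of miR-9, which act on REST and its corepressor, the neuronal activity-regulated miR-132-3p and miR-212-3p, and miR-29a-3p. Of its 6 members, 6 were in the fit, 0 were called higher and 0 lower, against 1.86% and 2.14% of all rows in the fit. The median log2 difference was -0.11, beside -0.12 for all miRNA rows in the fit. miR-9-3p was lowest at -0.21 ± 0.29 (SE), with a limma p-value of 0.468, and miR-212-3p was highest at 0.01 ± 0.31 (SE), with a limma p-value of 0.969. Both had an adjusted p-value of 0.9998.

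**Figure D5:**
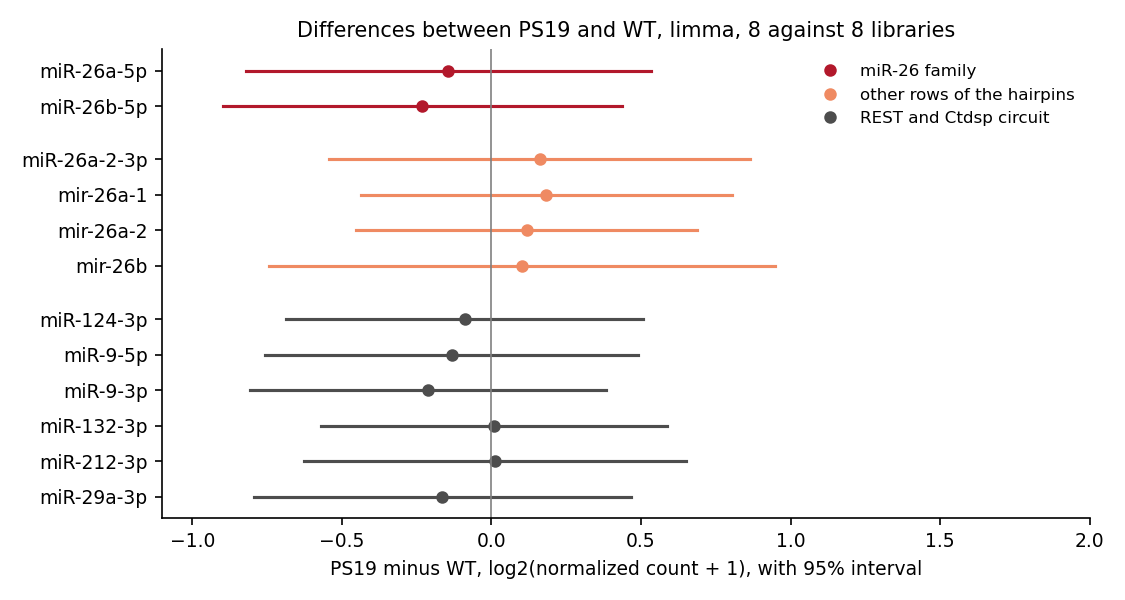
Difference of PS19 from WT on the log2(normalized count + 1) scale (horizontal axis) with its 95% limma interval for the rows in the fit, 8 against 8 libraries, coloured by group: the miR-26 family, other rows of the hairpins, and the REST and Ctdsp circuit. The intervals of all rows plotted include 0, and those of miR-26a-5p and miR-26b-5p run from -0.82 to 0.53 and from -0.90 to 0.44.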

How the data were processed

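Small RNA from prefrontal cortex tissue (8 PS19 and 8 WT libraries) was extracted with the Norgen MicroRNA kit and sequenced single-end after NEBNext small RNA library preparation. The authors aligned reads with STAR 2.5.3a inside COMPSRA and assigned reads to annotated miRNAs, circRNAs, tRNAs, snoRNAs and snRNAs, with mm10 named in the submitters' processing notes. Whether a read that matches several rows was counted in each is not given in the sources used here. The deposited values are a normalized signal, counts that the authors divided by 1 DESeq2 1.42.1 size factor per library. The deposited table also holds the authors' mean signal, log2 fold changes, Wald score and p-values, which were not used. 0 columns of values per library were left out.

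Groups came from the genotype labels. Dividing by the smallest value above 0 gave whole reads for 100% of values (tolerance 1e-06 reads). In WT replicates 4 and 6, where a read is worth nearly 1, this rests on weaker evidence. No pair of libraries of the same genotype agreed within sampling noise (chi-square per degree of freedom 43.5 to 569.9 over 56 pairs), and each library was taken as 1 mouse, after the study's methods. The 6024 rows with a mean of at least 5 were tested on log2(value + 1) with limma 3.58.1 (lmFit, eBayes with trend, genotype only) in R 4.3.3, and p-values were adjusted by Benjamini-Hochberg over all of them. Fold changes are on the log2(value + 1) scale, which understates low rows. Rows were called at an unadjusted p-value under 0.05, the threshold that the study set on its DESeq2 Wald test. miR-26b-3p and the ratios of recovered reads plus 1 were tested by exact two-sided permutation in Python 3.11.15. The script was tested on simulated data. Named rows were the members, the other rows of the 3 hairpins, the rows of a list of partner miRNAs, and for each member the 5 miRNA rows and 3 others with the highest Pearson r; miR-155-5p was named after its value was seen. A further list is not reported here. Members, lists and tests were chosen with earlier results of these data known. Sequences came from RefSeq (GRCm38.p6), and introns from GENCODE M21.

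Alternatives were DESeq2 1.42.0 and edgeR 4.0.16 on recovered reads, 2 other scalings, 2 other filters, pseudocounts of 0.5 and 5, array weights, rank tests, the replicate number as a block, the letter of the library code, and each library left out in turn.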

Additional observations from a re-analysis of the deposited data

How the results depend on the processing

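The level of miR-26a-5p, miR-26b-5p and miR-26b-3p was not called under any alternative run, and outside the runs that left out a library the log2 differences of PS19 from WT kept their sign, from -0.37 to -0.03, from -0.47 to -0.18 and from -0.23 to -0.04. miR-26b-3p, below the filter, was not run with DESeq2, edgeR, array weights or a mean of at least 20. With each library left out in turn, the differences ran from -0.31 to 0.0096 for miR-26a-5p (above 0 without PS19 replicate 8). They ran from -0.40 to -0.08 for miR-26b-5p and from -0.29 to 0.052 for miR-26b-3p (above 0 without PS19 replicate 6). For the ratio of the 5p members they ran from -0.15 to -0.04. For the ratio of the Mir26b arms they ran from -0.12 to 0.20 (below 0 without WT replicate 2 or 3). The log2 difference of the latter ratio was -0.0097 with a pseudocount of 0.5 reads and 0.22 with 5 reads. It was 0.32 with only the libraries of code letter G. Likewise, with each library left out, the differences ran from -0.029 to 0.37 for miR-26a-2-3p, from -0.034 to 0.26 for mir-26a-2 and from -0.19 to 0.30 for mir-26b. For mir-26a-1 they ran from 0.048 to 0.35 (lowest on leaving out PS19 replicate 5, highest on leaving out PS19 replicate 8). For miR-9-3p they ran from -0.36 to -0.088 (leaving out WT replicate 7 and PS19 replicate 8, respectively). The sign also turned for miR-26a-2-3p (-0.043 with DESeq2, -0.00061 with edgeR) and for mir-26b (-0.043 with DESeq2, -0.038 with edgeR, -0.18 with the letter of the library code). The cause was not tested.

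Rows called at an unadjusted p-value under 0.05 numbered 680 with no filter and 136 with a mean of at least 20, where more or fewer rows are tested, 418 with array weights, 124 with the letter of the library code, and 171 to 321 with a library left out. At an adjusted p-value, DESeq2 called 15, and 0 to 0 were called with a library left out. With the replicate number as a block 419 rows were called and 0 after adjustment. The labels state no link between same-numbered libraries beyond the number. Their deviations correlated between 0.0446 and 0.456, over 0.1 in 6 of 8 pairs, and 2 of 8 PS19 libraries correlated best with their own number. Whether same-numbered libraries shared more than the number was not tested. With 32 reads of miR-26b-3p in 16 libraries, depth limits that member. Spread between libraries bears on every member, and its part beside counting error was not tested.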
